A study of Mus musculus with 6 samples.

Results

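The genes described are 7 ligands of the bone morphogenetic protein family (Bmp2, Bmp4, Bmp5, Bmp6, Bmp7, Gdf5 and Gdf6) and 3 of their receptors (Bmpr1a, Bmpr1b and Bmpr2). They were chosen by symbol, and all 10 were measured, among 23279 genes tested. The choice was made with their activated and control values known, Bmp2 and Gdf6 among them, so the differences between these groups are given for the 10 genes as a description, and nothing is supported with them. Expression was measured on 6 arrays of primary mouse myoblasts, the precursors of skeletal muscle fibres, prepared from limb muscle of mice labelled strain C57bl6N. All 6 cultures carried Pax7-CreERT2, a Cre recombinase that tamoxifen switches on and that the promoter of the muscle stem cell gene Pax7 drives, and 1 beta-catenin allele with exon 3 between loxP sites. The 3 activated cultures received 4-OH tamoxifen in ethanol, which lets Cre delete exon 3 and leaves a stabilised beta-catenin, and the 3 control cultures received ethanol alone. Before that, the cells were expanded over 5 passages in serum-rich medium containing bFGF and were switched to a low-serum medium (2% HS) for 24 hours to differentiate. The sources used here do not give the age of the mice, the dose of the drug, the share of recombined cells or the animal behind each culture, so the spread between cultures may be partly technical. No array of cells given the drug without the floxed allele is among the 6, so effects of the drug and of the allele cannot be told apart.

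The 6 arrays had medians of 4.04 to 4.36 on the log2 scale. Ctnnb1, the beta-catenin gene, has 1 level per array, and the sources used here do not give the positions of its probes. That level therefore does not check the loss of 1 exon. The control mean of Ctnnb1 was 8.52 ± 0.21 (SD, n = 3) and its activated mean 8.54 ± 0.54. Axin2, a feedback gene that beta-catenin switches on, was at 4.55, 3.81 and 4.58 in control and 5.50, 5.85 and 6.54 in activated cultures, with no overlap between the groups.

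BMP ligands are secreted as dimers and bind a pair of type I receptors, such as the products of Bmpr1a and Bmpr1b, together with a pair of type II receptors such as that of Bmpr2. The active complex phosphorylates Smad1, Smad5 and Smad9, which enter the nucleus with Smad4 and switch on genes such as Id1 to Id3. The family is named for its capacity to induce bone, and in muscle precursors BMP signalling is known to hold back differentiation through the Id proteins, while secreted antagonists such as noggin limit its range.

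Promoter sequences were found for 6 of the 10 genes (Bmp4, Bmp5, Bmp6, Bmpr1a, Bmpr1b and Bmpr2) in the RefSeq promoter table (GRCm38.p6). Those of Bmp4 and Bmpr2 are shown because both genes had higher means in activated cultures and the stretch lies outside the annotated gene. Each is the 250 bases before the transcription start, on the gene's own strand, with matches to the motifs searched in capitals. Bmp4 lies at chr14:46390670-46390919 on the minus strand and Bmpr2 at chr1:59764029-59764278 on the plus strand.
Bmp4: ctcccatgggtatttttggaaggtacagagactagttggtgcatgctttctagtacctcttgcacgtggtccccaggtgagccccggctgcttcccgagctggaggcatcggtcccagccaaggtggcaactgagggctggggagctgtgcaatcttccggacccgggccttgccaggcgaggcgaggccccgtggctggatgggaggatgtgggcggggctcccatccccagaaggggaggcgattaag
Bmpr2: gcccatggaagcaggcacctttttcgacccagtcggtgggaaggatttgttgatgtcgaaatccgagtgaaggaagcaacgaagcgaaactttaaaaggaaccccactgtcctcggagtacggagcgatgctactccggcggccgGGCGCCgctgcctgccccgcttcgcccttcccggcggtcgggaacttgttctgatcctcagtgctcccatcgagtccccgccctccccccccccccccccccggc
The letters searched on both strands were CTTTGA and CTTTGT, core forms of the site bound by the TCF/LEF partners of beta-catenin, and GGCGCC, a palindrome bound by BMP-activated Smads. The Bmp4 stretch held none of them, and the Bmpr2 stretch held GGCGCC once, from 105 to 100 bases before the start. Over 32851 promoters of the same length CTTTGA occurred in 13.8%, CTTTGT in 16.5% and GGCGCC in 9.59%. The Bmpr1a promoter also held GGCGCC once, the 3 Bmpr1b promoters held CTTTGT at 2 distinct sites, 1 of them shared by a pair of overlapping promoters, and those of Bmp5 and Bmp6 held no match. These matches describe letters in a window and are not binding sites.

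Bmp2, whose product is among the strongest bone-inducing ligands, had log2 levels of 3.74, 3.66 and 4.37 in the controls numbered 1, 2 and 3, and the activated cultures, in the same order as in every later sentence, stood at 6.49, 6.88 and 7.81. The lowest activated array lay 2.12 above the highest control array. The log2 difference of the means was 3.14 ± 0.38 (SE from limma's linear model over all genes), an 8.79-fold difference, and it was 2.75, 3.22 and 3.43 between arrays of the same number. Gdf6, a ligand known from joint and skeletal patterning, stood at 4.36, 4.67 and 3.64 in control and at 6.51, 7.49 and 7.44 in activated cultures. Its groups were also apart, by 1.84 on the log2 scale. The difference was 2.92 ± 0.38 (SE), or 7.59-fold, and ran from 2.15 between the arrays numbered 1 to 3.80 between those numbered 3. Among the differences of all genes, ordered from the highest, that of Bmp2 was number 4 and that of Gdf6 number 9.

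Bmp4, the closest relative of Bmp2 among the ligands and itself known as a target of Wnt signalling in several tissues, gave 4.16, 3.55 and 4.39 in control and 4.90, 5.21 and 5.02 in activated cultures. Every activated array exceeded every control array, with a gap of 0.51. The difference was 1.01 ± 0.27 (SE), a 2.01-fold difference, and it was largest between the arrays numbered 2 (1.66) and smaller between those numbered 1 and 3 (0.73 and 0.63). Control replicate 2 had the lowest Bmp4 level of the 6 arrays and activated replicate 2 the highest.

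The other 4 ligands had overlapping groups. Bmp7, known for its part in kidney and skeletal development, was at 3.96, 3.61 and 4.30 in control and 3.93, 3.70 and 4.36 in activated cultures, a difference of 0.04 ± 0.28 (SE) whose sign turned without control replicate 2 or without activated replicate 3. Gdf5, a ligand of joint formation and the closest relative of Gdf6 here, was at 3.77, 3.38 and 4.38 and at 3.66, 3.46 and 4.07, a difference of -0.11 ± 0.32 that became positive after any of 3 further scalings: centring each array on its median, quantile normalization of the deposited values, or cyclic loess. In both genes and both groups the array numbered 2 was lowest and that numbered 3 highest, so the level followed the replicate number. The arrays numbered 2 also had the lowest 25th percentile over all probe sets in their group (2.90 in control and 2.80 in activated), and the part of this in the 2 genes was not tested. Bmp6, a ligand best known for iron regulation in liver, was at 3.43, 3.14 and 3.02 in control and 3.25, 2.89 and 2.62 in activated cultures, a difference of -0.28 ± 0.25 (SE). It kept its sign after each of the 3 further scalings and when any array or numbered pair was left out. Bmp5, known from skeletal shape mutants of the mouse, was at 3.67, 2.63 and 2.43 in control and 2.91, 2.73 and 3.07 in activated cultures. Control replicate 1 was the highest of its 6 values, and the difference of -0.01 ± 0.35 (SE) turned positive without it.

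**Figure D1:**
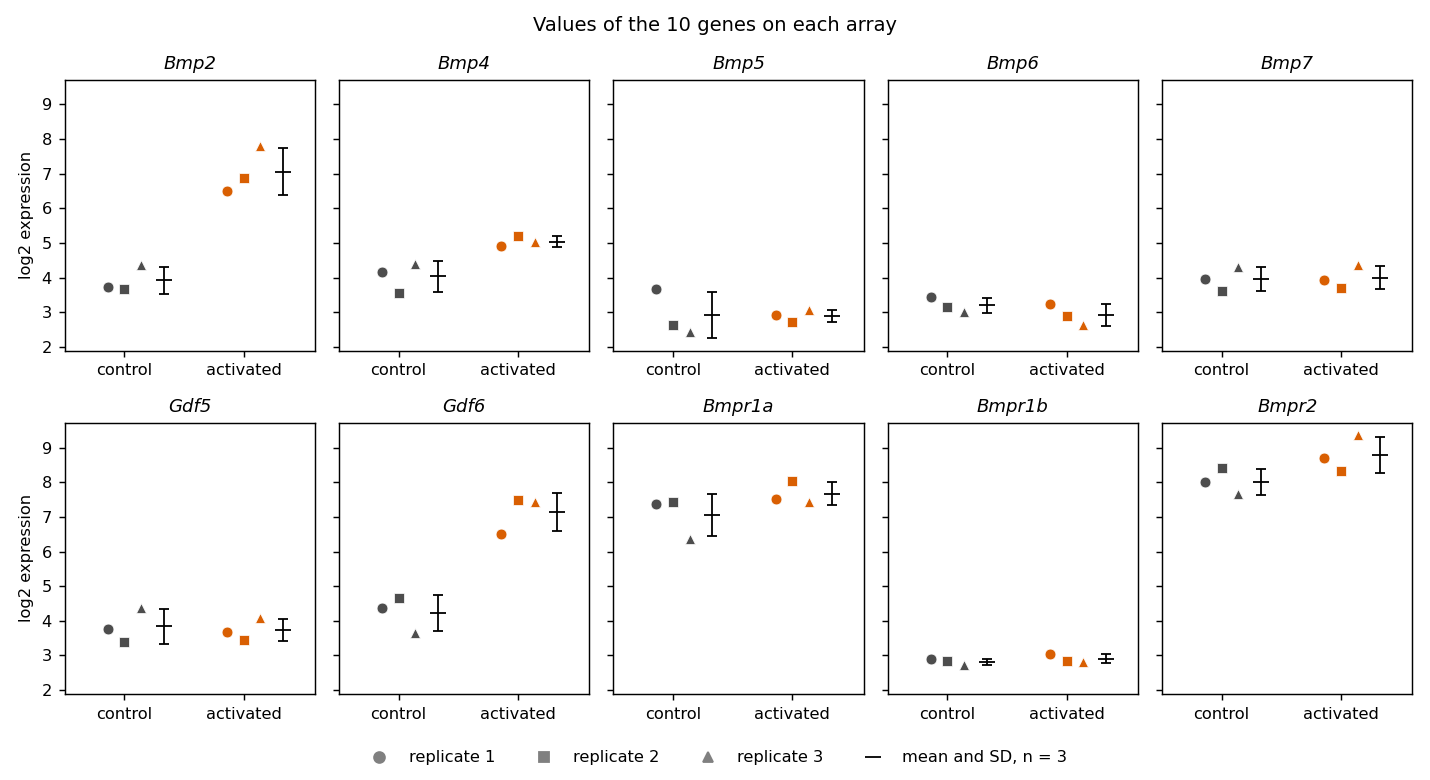
Log2 expression (y axis) of each of the 10 genes on the 3 control (grey) and 3 activated (orange) arrays, with the symbol giving the replicate number and the bar the mean and SD (n = 3). The activated arrays of Bmp2 and Gdf6 sit between 6.49 and 7.81, above all control arrays of the same gene, while Bmp5, Bmp6, Bmp7, Gdf5 and Bmpr1b overlap between groups.

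Among the receptors, Bmpr1a, the type I receptor found in most tissues, was at 7.36, 7.42 and 6.36 in control and 7.52, 8.04 and 7.43 in activated cultures. The groups were apart by only 0.01, and control replicate 3 was the lowest of the 6 arrays. The difference of 0.62 ± 0.35 (SE), 1.53-fold, was 0.27 without control replicate 3, 0.37 after quantile normalization and 0.32 after cyclic loess. Bmpr2, the type II receptor that pairs with it, was at 7.995, 8.40 and 7.65 in control and 8.71, 8.31 and 9.36 in activated cultures. Activated replicate 2 lay within the control range, and the difference of 0.78 ± 0.34 (SE), 1.71-fold, was 0.71, -0.09 and 1.71 between the arrays numbered 1, 2 and 3. It was 0.49 without activated replicate 3, 0.48 after quantile normalization and 0.38 after cyclic loess. Bmpr1b, a type I receptor known from cartilage and ovary, was between 2.71 and 3.05 on all 6 arrays, with a difference of 0.09 ± 0.20 (SE).

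Detection calls were not used here, and a log2 level also depends on the probes, so levels are not compared between genes. Bmp5, Bmp6 and Bmpr1b were below the median of their array on all 6 arrays, Bmp7 and Gdf5 on 5, and Bmpr1a and Bmpr2 on 0. Bmp2 was below it on 2 control arrays and on 0 activated arrays, Bmp4 likewise, and Gdf6 on 1 control array and 0 activated arrays.

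**Figure D2:**
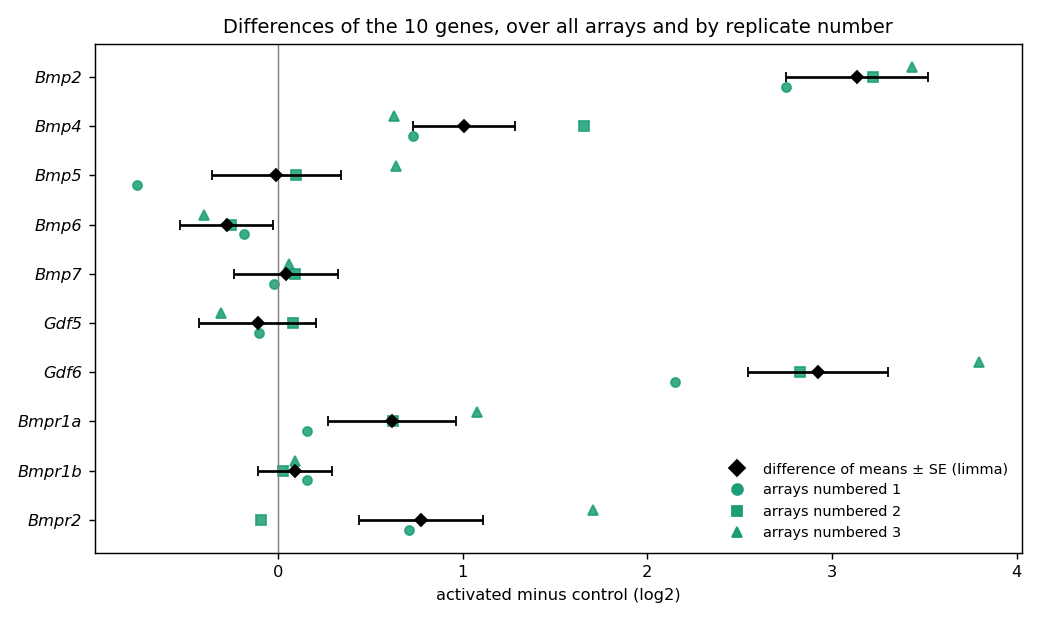
Activated minus control on the log2 scale (x axis) for each of the 10 genes (y axis): black diamonds give the difference of the group means with limma's SE, and green symbols the difference between arrays of the same replicate number. The 3 numbered differences of Bmp2 lie between 2.75 and 3.43, while those of Bmpr2 run from -0.09 to 1.71.

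Of the 10 genes, 7 had a higher mean in activated cultures, where 40.3% of all genes did, and 3 a lower one, against 59.7%. After median centring 9 were higher (55.6% of all genes), as after quantile normalization (48.2%) and cyclic loess (49.6%). Their median difference was 0.35, beside -0.08 for all genes, and 0.57 without control replicate 1. The 3 activated arrays lay above the 3 control arrays for 4 of the 10 (Bmp2, Bmp4, Gdf6 and Bmpr1a), a pattern found in 5.4% of all genes, and below them for 0, against 7.4%. In limma's fit none of the 10 passed an adjusted p of 0.05, as 0% of all genes did. At an unadjusted p under 0.05 there were 3 of the 10 (Bmp2, Bmp4 and Gdf6), all higher, where 4.44% of all genes were called in that direction, and 0 were lower, against 3.42%. With the replicate number as a block 1 of the 10, Bmp2, passed as higher (limma, adjusted p = 0.0434), where 0.12% of all genes did, and Gdf6 stood at an adjusted p of 0.0539. With the block 0 of the 10 passed as lower, against 0.0129%. The activated array was above the control array of the same number in all 3 pairs for 5 of the 10 (Bmp2, Bmp4, Gdf6, Bmpr1a and Bmpr1b), against 16.6%. Since these genes were chosen with this contrast in view, nothing is read from these shares.

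**Figure D3:**
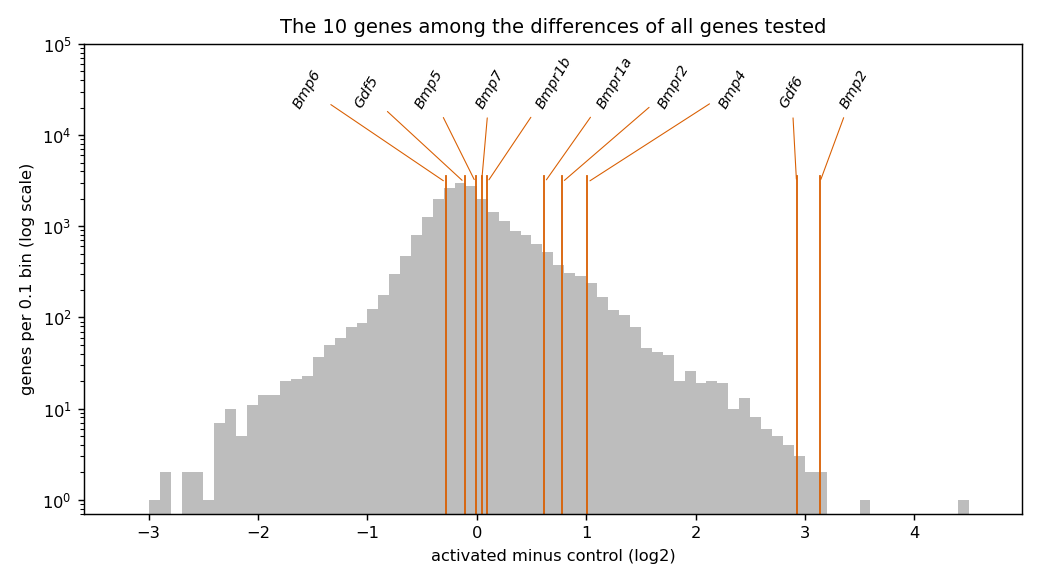
Histogram of activated minus control (log2, x axis; genes per bin of 0.1 on a log y axis) over all 23279 genes tested, with orange lines at the 10 genes. Gdf6 (2.92) and Bmp2 (3.14) lie at the right edge, and Bmp5, Bmp6, Bmp7, Gdf5 and Bmpr1b lie between -0.28 and 0.09.

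Likeness between the genes is given as Pearson's r over the 6 arrays, which share the group contrast and the hybridised libraries. Of the 45 pairs among the 10 genes, Bmp7 with Gdf5 had the highest r (0.94), followed by Bmp2 with Gdf6 (0.93) and Bmp2 with Bmp4 (0.90), while Gdf5 with Bmpr1a had the lowest (-0.81). Among the 7210 genes with an SD of at least 0.5 over the arrays, those most like Bmp2 were the actin cross-linker Flnc (0.98), the cytokine Lif (0.98) and Myzap (0.97). Those most like Gdf6 were the metalloproteinase inhibitor Timp3 (0.99), the ubiquitin ligase Rnf41 (0.99) and the activin antagonist Fst (0.98). Bmp4 was most like Rsph3b (0.97), the transcription factor Tead4 (0.97) and Myzap (0.96). All 8 genes had higher means in activated cultures, from 1.10 for Lif to 4.40 for Timp3. They were picked for likeness to genes chosen with this contrast in view, so that direction followed from the choice.

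The rest of the pathway was counted from lists of 69 measured genes outside the 10. Of these, 36 were higher and 33 lower in activated cultures, where 40.3% of all genes were higher, with a median difference of 0.06. After median centring 44 were higher and 25 lower (55.6% of all genes higher). After quantile normalization 33 were higher and 36 lower (48.2%), and after cyclic loess 34 and 35 (49.6%). None passed limma's test over all genes, while at an unadjusted p under 0.05 there were 6 higher (4.44% of all genes) and 3 lower (3.42% of all genes). With the block 1 passed as higher, Fst, where 0.12% of all genes did, and 0 passed as lower, against 0.0129%.

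Among 12 other ligands 4 were higher and 8 lower. Gdf11, a close relative of myostatin, was at 5.83, 6.36 and 5.46 in control and 6.51, 7.02 and 6.93 in activated cultures, so that each activated array was above each control array (difference 0.93 ± 0.30, SE; limma, adjusted p = 0.479). Bmp8a differed by -0.74 ± 0.29. Among 11 other receptors and co-receptors 5 were higher. The type II receptor Acvr2a, which also binds BMPs and activins, was at 6.35, 6.87 and 6.06 in control and 7.38, 7.47 and 6.81 in activated cultures. Only activated replicate 3 fell below the highest control array (difference 0.79 ± 0.30, SE; limma, adjusted p = 0.585). The muscle co-receptor gene Hjv, encoding hemojuvelin, was at 6.61, 7.21 and 5.28 and at 8.77, 9.38 and 6.77. In both groups its lowest array was that numbered 3. The difference of 1.94 ± 0.74 (SE) had an adjusted p of 0.588 in limma and of 0.0539 with the block. Acvr2b differed by -0.19 ± 0.28 and the type I receptor Acvr1 by 0.06 ± 0.26, the latter negative after quantile normalization or cyclic loess.

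Of the 4 Smads that carry or share the BMP signal, Smad1 was at 6.13, 6.53 and 5.95 in control and 7.04, 7.09 and 6.91 in activated cultures. Its groups did not overlap (difference 0.81 ± 0.23, SE; limma, adjusted p = 0.428). Smad5 differed by 0.06 ± 0.24 and Smad4 by 0.15 ± 0.22, both turning negative after quantile normalization or cyclic loess, and Smad9 by -0.28 ± 0.26.

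Extracellular antagonists were divided, 8 of 15 higher and 7 lower. Fst, encoding follistatin, which binds activins and, more weakly, BMPs, was at 7.03, 6.74 and 6.19 in control and 9.41, 9.81 and 9.58 in activated cultures, with a gap between the groups wider than the range within either. The difference of 2.95 ± 0.28 (SE) did not pass without the block (limma, adjusted p = 0.0848) and passed with it (0.0434). Sostdc1, an antagonist of both BMP and Wnt signalling, was lower on each activated array: 6.13, 6.38 and 5.38 in control and 4.92, 4.71 and 4.85 in activated cultures (difference -1.14 ± 0.30, SE; limma, adjusted p = 0.380). Noggin (Nog) differed by 0.12 ± 0.29, with the sign turned without control replicate 3 or activated replicate 1, and gremlin (Grem1) by -0.29 ± 0.27. Among 9 intracellular and membrane inhibitors 7 were higher, with Tob1 at 0.69 ± 0.39, the pseudoreceptor Bambi at 0.37 ± 0.27, Smad7 at 0.51 ± 0.38 and Smad6 at -0.42 ± 0.38 (log2 differences ± SE). Tob1 was at 0.27 without control replicate 3, Smad7 at 0.16 and Smad6 at -0.12 without control replicate 1, Bambi at 0.22 without activated replicate 1, and Smad7 at 0.23 after quantile normalization. Of 7 proteases that process BMPs or their antagonists 5 were lower, where 59.7% of all genes were. Among them were Pcsk5 (-0.57 ± 0.22) and Tll2 (-0.42 ± 0.22), at -0.37 and -0.23 after cyclic loess.

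Among 11 measured response genes 7 were higher and 4 lower. Id1, a direct target of BMP-activated Smads that inhibits myogenic factors, was at 6.93, 10.08 and 8.21 in control and 6.38, 10.13 and 9.06 in activated cultures. Id3, a related inhibitor, was at 6.56, 8.72 and 8.28 and at 5.55, 9.21 and 8.40. For both genes the array numbered 1 was lowest and that numbered 2 highest in each group, so the cultures of a group differed by far more than the group means did. The Id1 difference was 0.12 ± 1.08 (SE; negative after quantile normalization or cyclic loess), that of Id3 -0.13 ± 0.97 and that of Id2 0.16 ± 0.38 (also negative after either scaling). With the block, which takes out what arrays of the same number share, the SE was 0.30 for Id1 and 0.32 for Id3, and neither passed (limma, adjusted p = 0.857 and 0.854). When 1 array was left out the Id1 difference ran from -0.68 to 1.19 and that of Id3 from -0.88 to 0.95, so neither had a settled sign. Sp7, the osteoblast transcription factor osterix, was at 3.60, 6.29 and 4.78 in control and 7.25, 7.25 and 8.31 in activated cultures. Each activated array was above each control array, though the controls spanned more than the activated cultures did (difference 2.71 ± 0.66, SE; limma, adjusted p = 0.336). Hey1 differed by 0.63 ± 0.28.

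**Figure D4:**
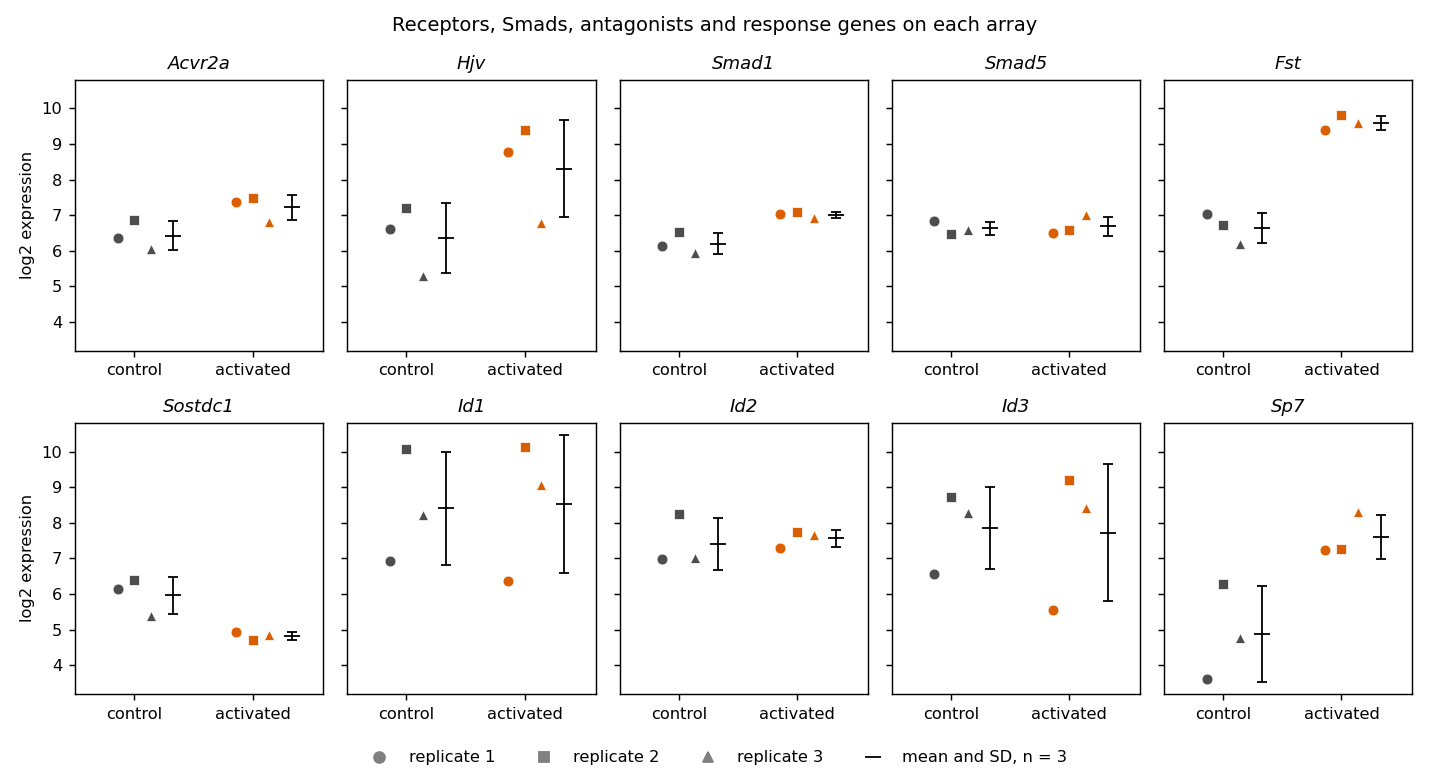
Log2 expression (y axis) of 10 pathway genes outside the described group on the 3 control (grey) and 3 activated (orange) arrays, with the symbol giving the replicate number and the bar the mean and SD (n = 3). Fst is apart between groups, while Id1 and Id3 spread from 5.55 to 10.13 and follow the replicate number in both groups.

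Markers were read as lists on the same arrays, with each list's summed level given as the log2 of the sum of the unlogged values. Differentiated muscle genes had higher activated means in 7 of 8 cases, all but Ckm (-0.27), and 0 of 8 passed limma's test over all genes. With the block 1 passed as higher, Actn2, where 0.12% of all genes did, and 0 passed as lower, against 0.0129%. The summed level of the 8 genes was 11.27 to 12.39 in control and 13.26 to 13.97 in activated cultures. The part of this in the Bmp2 and Gdf6 differences was not tested. Myoblast genes were 5 of 6 higher (10.91 to 11.65 and 11.55 to 12.45), all but Pax7. The control mean of Pax7 was 8.05 and its activated mean 7.45, with overlapping groups. Myod1, a defining gene of the labelled cell type, was at 9.33 ± 0.59 (SD, n = 3) and 9.48 ± 0.73. Bone and cartilage markers, which include Sp7, had 2 of 7 higher (7.27 to 8.02 and 8.14 to 9.01), with Alpl at 3.70 in both groups. Besides Sp7 (difference 2.71) only Bglap was higher (0.60), and the lowest difference was -0.29, so the higher sum rests mainly on Sp7. Fibroblast markers had 2 of 7 higher (7.57 to 8.12 and 7.09 to 8.11), with Pdgfra at 3.08 and 2.99, Thy1 at 4.62 and 5.79 and Col3a1 at 7.09 and 6.14 as control and activated means. Endothelial markers had 1 of 6 higher (6.32 to 6.47 and 5.97 to 6.26). Leukocyte markers also had 1 of 6 higher (6.58 to 7.98 and 6.52 to 7.32). Smooth muscle and pericyte markers had 3 of 6 higher (9.85 to 11.13 and 9.83 to 10.99). In that list Acta2 differed by 1.08 ± 0.39 (SE) and Rgs5 by -1.78 ± 0.55, both with overlapping groups. Similar sums there hold opposite differences. Beside these counts, 40.3% of all genes had a higher activated mean. The table holds no 0, its lowest value being 1.22. In bulk RNA, fewer cells of a type and less RNA per cell cannot be told apart.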

How the data were processed

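The authors deposited log2 expression values per probe set. RMA and Partek appear in the labels, per the submitters' processing notes, without version or role. Biotin-labelled target came from 100 ng of total RNA, per the labels' protocols. The sources used here name neither the array design nor a genome build. The platform annotation gave 1 symbol to 23281 of 24479 probe sets. For 2 symbols with several probe sets the one with the highest mean was kept, leaving 23279 genes.

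limma 3.58.1 in R 4.3.3 fitted group as the only term, with its moderated test (two-sided) and p-values adjusted by Benjamini-Hochberg over all genes, without a filter or pseudocount, and was tested on simulated data. SDs are over 3 cultures. SEs are limma's. Deviations from the group means correlated at 0.38, 0.49 and 0.45 between arrays numbered 1, 2 and 3 (each above 0.1), so a fit that pairs arrays by number is also reported. The labels do not say that equal numbers mark a shared origin. SEs and p-values given without mention of the block therefore leave the pairing out. Results of the paired fit (replicate block) appear where a call changes, and also for Gdf6, Hjv, Id1 and Id3, whose calls it did not change. Alternatives were the block, 3 further scalings, a filter on dim genes, a variance trend and leaving out arrays or pairs. Of each pathway list the 2 genes with the smallest p, and Id1, Id2, Id3, Smad1, Smad4, Smad5, Smad6, Smad7, Nog, Grem1, Fst, Acvr1, Acvr2a and Acvr2b, were to be named. Likeness names the 3 most correlated genes for each of the 3 members with the largest differences. The members and lists were chosen with earlier results of these data known. Some genes on the lists were not analysed here.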

Additional observations from a re-analysis of the deposited data

How the results depend on the processing

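With 6 arrays the precision is limited. Without detection calls it is not known whether genes near or below the array median were detected. No gene passed limma's test over all genes as deposited, nor after median centring, quantile normalization, cyclic loess, the dim-gene filter or the variance trend. With the replicate block 31 genes passed, 1 of them among the pathway genes outside the 10, and with the block after quantile normalization 0 did. When arrays or pairs were left out the count of passing genes ranged from 0 to 501 (28 without activated replicate 3 and 501 with the block and without the pair numbered 3) and that of pathway genes from 0 to 3. The median difference of the 10 genes ranged from 0.24 (without control replicate 3) to 0.57 (without control replicate 1) when 1 array was left out, from 0.20 to 0.59 when a pair was left out with the block, and from 0.29 to 0.48 over the scalings. The number of the 10 with no overlap and a higher activated level ranged from 4 to 5 when arrays were left out. It was 5 after median centring and 3 after quantile normalization or cyclic loess. With fewer arrays such a pattern is easier to reach for any gene. The share of all genes with it is not given here for these settings. The Bmp2 difference ran from 2.76 to 3.42, that of Gdf6 from 2.49 to 3.31 and that of Bmp4 from 0.68 to 1.20 over all alternatives. With the block and without the pair numbered 3, Bmp2 (limma, adjusted p = 0.00877) and Gdf6 (0.0128) passed. Their adjusted p over all alternatives reached 0.662 and 0.709. The sign of the Bmp5 difference turned under 7 alternatives, that of Gdf5 under 6 and that of Bmp7 under 2. The block by itself cannot change a difference, so the 7 and the 6 count quantile normalization again when run with the block. The block changed no other call among the 10 genes. The dim-gene filter kept only Bmp2, Bmp4, Gdf6, Bmpr1a and Bmpr2, so no median of the 10 was given under it. It cut on the mean over all 6 arrays, at 4.28. The control means of Bmp2 (3.93), Bmp4 (4.03) and Gdf6 (4.22) lay below that level, so these genes were kept through their activated arrays.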
